A study of Mus musculus with 10 samples.

Results

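Cholesterol synthesis and its control were followed through 34 genes, the enzymes of the mevalonate and sterol pathway, the SREBP transcription factors with their escort and anchor proteins, sterol transporters, and the fatty acid enzymes that SREBP proteins also switch on. The genes were chosen by symbol from the deposited table of 17053 genes, and 34 of 34 symbols were found, each in 1 row. They comprised 8 mevalonate and isoprenoid enzymes, 11 squalene and sterol enzymes, 5 regulators, 5 uptake and transport genes and 5 fatty acid enzymes. The cells were wild-type NIH-3T3 cells, an established mouse fibroblast line, grown in DMEM with newborn calf serum. There were 5 groups of 2 libraries, replicates A and B. Of these, 3 received 800 µM 4-thiouridine (4sU), a uridine analogue that is built into RNA made during labelling, for 2 h. In the TUC group the isolated RNA was then converted with osmium tetroxide in an ammonium buffer, in the SLAM group with iodoacetamide, and in the unconverted 4sU group with neither. The other groups were cells given 800 µM uridine for 2 h and untreated cells. Both chemistries make 4sU positions read as T-to-C mismatches, from which the share of new RNA per gene, the new-to-total ratio (NTR), is estimated, and the comparisons ask whether labelling or chemistry moves the measured levels.

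Cells make cholesterol from acetyl-CoA through mevalonate, isoprenoid diphosphates, squalene and lanosterol. When sterols in the endoplasmic reticulum membrane are low, SCAP escorts SREBP precursors to the Golgi, where they are cut and release a transcription factor that enters the nucleus and binds sterol regulatory elements. When sterols are high, INSIG proteins hold SCAP back, and serum lipoproteins taken up by fibroblasts are a main source of those sterols.

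The promoters of 4 genes are shown because the genes lie at distinct points of this loop and their RNA was read in every library. They belong to Hmgcs1, the synthase that makes HMG-CoA, Insig1, the anchor that closes the feedback loop, Msmo1, a sterol methyl oxidase, and Srebf2, the SREBP gene most tied to cholesterol synthesis. Each line is the window of 250 bases that ends just before the RefSeq start in GRCm38.p6, written 5′ to 3′ on the strand of the gene. Hmgcs1 lies on the plus strand at chr13:119690101-119690350, Insig1 on the plus strand at chr5:28071162-28071411, Msmo1 on the minus strand at chr8:64733579-64733828, and Srebf2 on the plus strand at chr15:82147019-82147268. Capitals mark the sterol regulatory element core TCACNCC, the E-box CACGTG and the NF-Y letters CCAAT, on either strand.
Hmgcs1: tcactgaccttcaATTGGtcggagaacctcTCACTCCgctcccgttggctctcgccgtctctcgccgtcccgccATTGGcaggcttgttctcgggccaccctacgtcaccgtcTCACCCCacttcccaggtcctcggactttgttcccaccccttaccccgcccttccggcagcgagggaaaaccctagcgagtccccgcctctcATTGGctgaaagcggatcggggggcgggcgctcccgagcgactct
Insig1: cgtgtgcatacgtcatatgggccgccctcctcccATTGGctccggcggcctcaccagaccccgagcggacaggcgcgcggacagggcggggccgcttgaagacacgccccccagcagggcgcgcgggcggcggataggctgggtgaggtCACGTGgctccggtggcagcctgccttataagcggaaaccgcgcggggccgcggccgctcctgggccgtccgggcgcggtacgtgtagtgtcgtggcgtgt
Msmo1: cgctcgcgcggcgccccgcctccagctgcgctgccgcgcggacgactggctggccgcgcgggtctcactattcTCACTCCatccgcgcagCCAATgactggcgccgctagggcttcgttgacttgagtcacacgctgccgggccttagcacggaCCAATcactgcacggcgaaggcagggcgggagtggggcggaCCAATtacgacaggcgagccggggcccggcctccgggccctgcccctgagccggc
Srebf2: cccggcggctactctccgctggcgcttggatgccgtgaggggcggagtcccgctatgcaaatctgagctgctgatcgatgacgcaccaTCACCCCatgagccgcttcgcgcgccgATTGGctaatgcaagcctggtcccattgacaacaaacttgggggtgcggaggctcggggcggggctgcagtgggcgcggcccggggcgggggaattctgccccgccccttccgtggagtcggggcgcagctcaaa
No marked matches overlapped in these windows. The Hmgcs1 window held 2 core elements, from 137 to 131 and from 220 to 214 bases before the start, and the nearer one ran on into the longer form TCACNCCAC. The single core element of Msmo1 lay from 177 to 171 bases and that of Srebf2 from 162 to 156 bases before the start. The Insig1 window held no core element and 1 E-box, from 101 to 96 bases before the start.

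Among the 34 genes, 27 matched a RefSeq promoter. The core element, searched on both strands, was in 5 of them (Acat2, Hmgcs1, Insig2, Msmo1 and Srebf2), against 15.1% of all 27025 genes with a promoter, and the longer form in Hmgcs1 only, against 1.23%. CCAAT was in 21 of 27 against 37.5% of genes, the Sp1 letters GGGCGG in 22 against 35.4%, and the E-box in 6 against 6.86%. A match describes letters and not a bound site.

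Library totals ranged from 27094222 to 33785682 reads. All 34 genes passed the filter on low counts, as did 12218 of the table's genes, and their counts ran from 60 to 106825 reads per library. All 12 fibroblast markers were present, summing to 17631 to 25873 reads per 1000000 (CPM) and led by Fn1. Markers of liver, endothelial and epithelial cells each summed to at most 1.00 CPM in any library, but only 2 of 4, 3 of 3 and 1 of 3 were in the table. Of 7 fat cell markers 4 were in the table, and only Fabp4 reached 1 CPM. The macrophage markers, 3 of 4 in the table, summed to 7.62 to 15.6 CPM, from Cd68 and, at 0.975 to 2.02 CPM, Csf1r. Their part in the results was not tested.

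In untreated cells the RNA of this pathway spanned a wide range of levels. Scaled by the deposited gene length to a total of 1000000 per library, Scd2 stood highest at 1432 ± 45.8, followed by Acat2 at 804 ± 17.7, Cyp51 at 717 ± 8.94, Fdps at 564 ± 25.3 and Msmo1 at 561 ± 5.78 (mean ± SD, n = 2 here and below). Fdps and Msmo1 did not differ beyond their spread, and Acly, Insig1, Hmgcs1 and Nsdhl came next, at 526 ± 4.36, 493 ± 8.04, 472 ± 14.0 and 427 ± 12.2. The lowest were Srebf1 at 32.6 ± 1.06, Insig2 at 28.0 ± 2.75, Npc1 at 26.0 ± 4.69, Ggps1 at 9.53 ± 0.453 and Abca1 at 1.07 ± 0.00745, and of these Insig2 and Npc1 did not differ beyond their spread. On the same scale Srebf2 had 235 ± 22.8, above Srebf1, and Insig1 stood above Insig2. Enzymes of one pathway thus differed in level, with Ggps1, which makes geranylgeranyl diphosphate, far below Fdps, which makes the farnesyl diphosphate it uses.

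The share of new RNA after 2 h of labelling differed more between these genes than between chemistries or replicates. In the SLAM libraries the highest mean NTR, that of Hmgcs1, was 9.74 times the lowest, that of Tm7sf2, a sterol reductase. NTR means were over 0.7 for 8 genes, from 0.3 to 0.7 for 18 and under 0.3 for 8. The median over the 33 genes that averaged at least 100 reads (all but Abca1) was 0.492 in TUC and 0.484 in SLAM, against 0.586 and 0.566 over all 10202 such genes, and 13 of the 33 lay above the median of all genes under either chemistry. In libraries without conversion the same estimate reached at most 0.0328 over the 34 genes in unconverted 4sU and at most 0.0218 in uridine leaving out Abca1, the gene with fewest reads, which reached 0.0567.

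Hmgcs1 was read as almost wholly new. Its NTR was 0.978 and 0.978 in TUC A and B and 0.972 and 0.977 in SLAM A and B, and 93.5% of all ranked genes lay below its SLAM mean. Insig1 followed with 0.946 and 0.938 in TUC A and B and 0.940 and 0.938 in SLAM A and B, above 86.1% of genes. Stard4, a carrier that moves sterol between membranes, had 0.856 and 0.896 in TUC A and B and 0.850 and 0.895 in SLAM A and B. Ggps1 had 0.819 and 0.832 in TUC A and B and 0.781 and 0.852 in SLAM A and B. For Ggps1, as for Hmgcs1 and Stard4, the replicates of SLAM differed by more than the means of the chemistries did. Under constant synthesis and decay these ratios would correspond to half-lives of 21.7, 21.7, 23.2 and 22.0 min for Hmgcs1, 28.5, 29.9, 29.6 and 30.0 min for Insig1 and 42.9, 36.8, 43.8 and 37.0 min for Stard4, in the order TUC A, TUC B, SLAM A and SLAM B. Constant synthesis was not tested, and a change in synthesis during labelling would shift these numbers.

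At the other end lay RNAs that were mostly older than the label. Tm7sf2 had an NTR of 0.093 and 0.125 in TUC A and B and 0.090 and 0.110 in SLAM A and B, above 1.83% of ranked genes. Npc2, a lysosomal cholesterol carrier, had 0.132 and 0.144 in TUC A and B and 0.119 and 0.137 in SLAM A and B. Ebp, a sterol isomerase, had 0.154 and 0.172 in TUC A and B and 0.150 and 0.154 in SLAM A and B, and Acly, which supplies acetyl-CoA from citrate, had 0.191 and 0.223 in TUC A and B and 0.181 and 0.210 in SLAM A and B. The same formula gave half-lives of 14.2, 10.4, 14.7 and 11.9 h for Tm7sf2 and 6.53, 5.50, 6.93 and 5.89 h for Acly. All of these ratios stood clear of the values without conversion.

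Within each functional group the new share spread widely. Among the mevalonate and isoprenoid enzymes it ran in SLAM means from 0.975 (Hmgcs1) through 0.817 (Ggps1), 0.507 (Mvd) and 0.484 (Idi1) to 0.260 (Mvk). Among the sterol enzymes it ran from 0.776 (Msmo1) to 0.100 (Tm7sf2), with Sc5d at 0.715, Sqle at 0.710 and Hsd17b7 at 0.688. The paired regulators separated: Insig1 had 0.939 and Insig2 0.415, Srebf1 0.731 and Srebf2 0.452. Scap, the escort, had 0.309. Of the lysosomal partners Npc1 had 0.518 and Npc2 0.128, and among the fatty acid enzymes Fasn had 0.609, Scd2 0.408, Acaca 0.375, Scd1 0.268 and Acly 0.195.

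**Figure D1:**
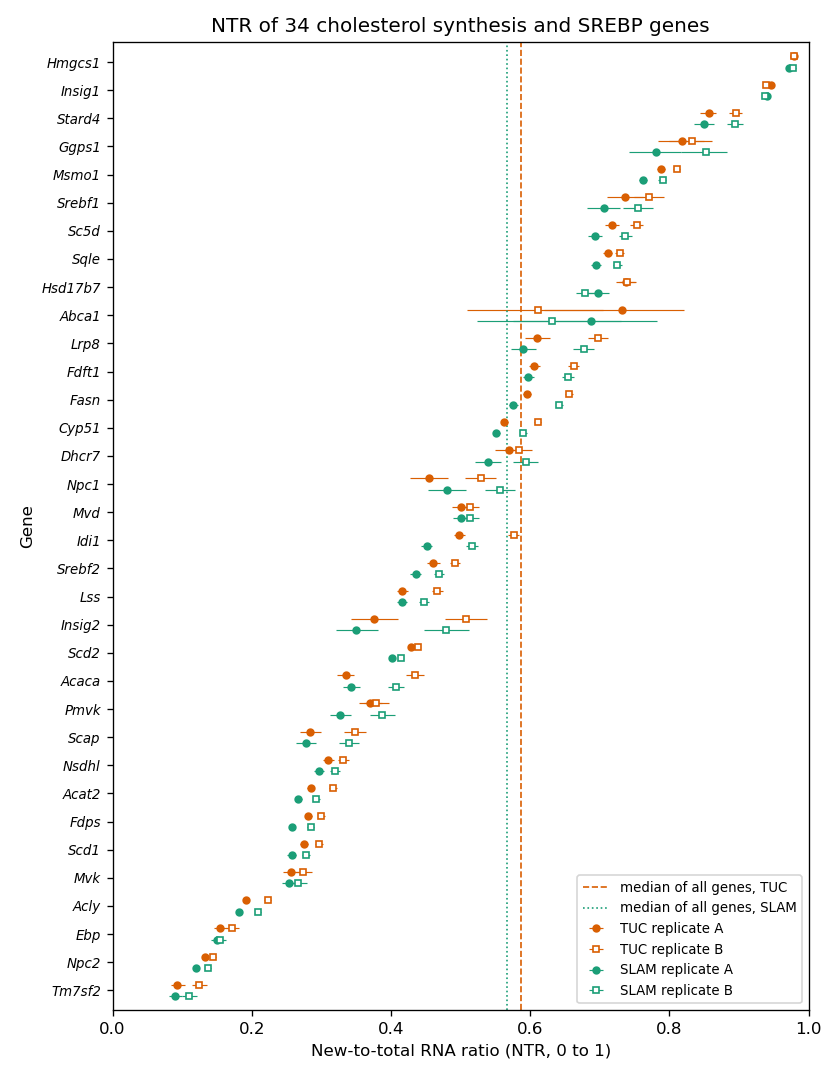
New-to-total RNA ratio (x axis, 0 to 1) of the 34 genes (y axis, sorted by the SLAM mean) in each converted library, with bars for the deposited lower and upper bounds (quantiles 0.05 and 0.95). Orange marks TUC, green SLAM, filled circles replicate A and open squares replicate B; the lines are the medians of all genes that averaged at least 100 reads, and Hmgcs1 at 0.975 and Tm7sf2 at 0.100 are the ends of the SLAM range.

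Multiplying level by NTR gives the amount of new RNA on the length-scaled SLAM values. Scd2 led with 463, followed by Insig1 with 370, Msmo1 with 357, Cyp51 with 319 and Hmgcs1 with 283. On the TUC values the first 3 were the same, with 519, 427 and 415, but Hmgcs1 with 378 stood above Cyp51 with 366. For RNA made before the label the order in SLAM differed: Hmgcs1 was rank 31 of 34 with 7.30 and Insig1 rank 25 with 24.2, while Acat2 was rank 2 with 566 and Fdps rank 3 with 486.

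The chemistries gave nearly the same NTR for these genes. The TUC mean was above the SLAM mean in 33 of 34 genes, by at most 0.053 (Idi1, 0.537 in TUC and 0.484 in SLAM), and Npc1 was the exception at 0.492 in TUC and 0.518 in SLAM. On the logit scale 32 of the 33 ranked genes were higher in TUC, against 69.1% of all ranked genes, and single libraries decided this: it was 13 of 33 without SLAM replicate A (31.4% of all), 18 without TUC replicate B (30.0%), 33 without SLAM replicate B (84.1%) and 32 without TUC replicate A (83.0%). TUC was above SLAM in both replicates for 28 of the 33 ranked genes (84.8%), against 47.4% of all ranked genes. The limma test on the logit scale called 0 of the 33 genes, while it called 27 of 10202 genes, 0.265%. At an unadjusted p under 0.05 it had 0 of the 33 and 245 of the 10202 genes. With the letter as a block it called 0 of all 10202 genes, and 0 of the 33 had an unadjusted p under 0.05, beside 806 of all. Spearman's rho between the TUC and SLAM means over the 34 genes was 0.997, as a description over genes that share their libraries. Replicate B exceeded replicate A in 32 of the 33 genes in TUC and 31 in SLAM, against 85.1% and 84.8% of all genes. The test of that letter difference called 0 genes of 10202, and the smallest adjusted p among the 33 was 0.0842.

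Whether labelling or conversion moves the measured level was then asked of the read counts. Without the replicate letter in the model, edgeR's quasi-likelihood test called 0 of the 34 genes in each of the 6 group comparisons. The number at an unadjusted p under 0.05 was 4 in TUC against 4sU, 6 in TUC against SLAM, 7 in SLAM against 4sU, 2 in 4sU against uridine, 1 in 4sU against untreated and 0 in uridine against untreated. Over all 12218 genes this fit called 0, 0, 42 (0.344%), 31 (0.254%), 20 (0.164%) and 0 in that order. At an unadjusted p under 0.05 it had 846, 1205, 2284, 1237, 1102 and 46 of all genes, in the same order. DESeq2 without the letter called 4 of the 34 in SLAM against 4sU, 1 in TUC against SLAM and 0 in the others, and over all 12218 genes it called 693 in SLAM against 4sU, 183 in TUC against SLAM, 15 in TUC against 4sU, 275 in 4sU against uridine, 241 in 4sU against untreated and 0 in uridine against untreated. With the letter as a block the common dispersion was 0.00195, against 0.0187 without it. Below, "rose" and "fell" name genes past an adjusted p of 0.05 in the fit with that block, and fold changes are log2 values from it unless another fit is named. In bulk RNA fewer cells and less RNA per cell cannot be told apart, and all levels are relative to the library.

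With the block, each chemistry was set against the unconverted 4sU libraries, which the comparisons share. In SLAM against unconverted 4sU 19 of 34 genes passed, 8 higher and 11 lower, where 41.6% of all genes passed, 20% higher and 21.6% lower. In TUC against unconverted 4sU 15 passed, 7 higher and 8 lower, where 25.8% of all genes passed, 11.6% higher and 14.2% lower. The order of these counts turned when only the 4 libraries compared were fitted, with 24 in TUC against 4sU (5071 of 11963 genes) and 15 in SLAM against 4sU (4749 of 12006 genes). TUC against SLAM passed for 11 genes, 8 higher and 3 lower, where 20.1% of all genes passed, 10% higher and 10.1% lower. The median log2 fold change over the 34 genes was -0.026 in TUC against 4sU and -0.073 in SLAM against 4sU, against 0.0085 and 0.00097 over all genes. Libraries did not overlap between groups for 16 genes in TUC against 4sU and 16 in SLAM against 4sU, where this held for 37.2% and 43.4% of all genes.

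Calls at this number of libraries depended on single ones, over all genes as over the 34. In SLAM against 4sU the count was 9 without 4sU replicate A, 11 without 4sU replicate B, 14 without SLAM replicate A and 26 without SLAM replicate B, beside 3032, 3139, 3907 and 5703 of all genes, and 8 of the 34 genes passed in each of these fits (Hmgcs1, Mvk, Idi1, Hsd17b7, Stard4, Abca1, Acaca and Scd2). In TUC against 4sU it was 3 without 4sU replicate A, 5 without 4sU replicate B, 5 without TUC replicate A and 2 without TUC replicate B, beside 661, 1132, 1226 and 568 of all genes, with Fasn the only one of the 34 in each. In TUC against SLAM it was 3 without TUC replicate A, 3 without TUC replicate B, 14 without SLAM replicate A and 13 without SLAM replicate B, beside 950, 1026, 2834 and 2997 of all genes, and Hmgcs1, Idi1 and Stard4 passed in each. How many of all genes passed in each of the leave-out fits of a comparison was not counted. Scaled by library totals in place of TMM factors, the split was 4 higher and 13 lower in SLAM against 4sU. Over all genes it was 1974 higher and 2929 lower. In TUC against 4sU it was 5 higher and 10 lower, beside 1005 higher and 1737 lower over all genes.

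Of the mevalonate and isoprenoid enzymes, 4 of 8 rose in TUC and 0 fell, and 4 rose and 2 fell in SLAM, both against unconverted 4sU. The 2 that fell in SLAM were the synthase Hmgcs1 and the isomerase Idi1, which interconverts the isoprenoid building blocks. Hmgcs1 had 586 and 579.7 CPM in TUC A and B, 445 and 421 in SLAM, 625 and 605 in unconverted 4sU, 677 and 603 in uridine and 652 and 585 in untreated libraries. Both SLAM libraries lay below the other 8, and the TUC libraries were near untreated replicate B. Hmgcs1 fell in SLAM, with -0.51 ± 0.055 (SE, adjusted p = 7e-06) against 4sU. It was -0.077 ± 0.055 (SE, adjusted p = 0.326) in TUC against 4sU, and was higher in TUC than in SLAM by 0.43 ± 0.055 (SE, adjusted p = 0.000104). Idi1 had 460.1 and 415 CPM in TUC A and B, 377 and 310.2 in SLAM, 441 and 424 in unconverted 4sU, 412 and 397 in uridine and 413 and 395 in untreated libraries. Its SLAM libraries were again the lowest 2 of the 10, and its fold change was -0.34 ± 0.06 (SE, adjusted p = 0.000357) in SLAM against 4sU, 0.014 ± 0.06 (SE, adjusted p = 0.888) in TUC against 4sU and 0.35 ± 0.06 (SE, adjusted p = 0.000796) in TUC against SLAM.

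The enzymes between them behaved otherwise. Mvk, mevalonate kinase, had 159 and 133 CPM in TUC A and B, 191 and 133 in SLAM, 136 and 119 in unconverted 4sU, 131 and 108 in uridine and 134 and 115 in untreated libraries. In both letters the converted libraries stood above the unconverted 4sU library of the same letter, although the groups overlapped because A exceeded B. Mvk rose by 0.19 ± 0.068 (SE, adjusted p = 0.0488) in TUC and by 0.33 ± 0.067 (SE, adjusted p = 0.00107) in SLAM. Pmvk, phosphomevalonate kinase, had 101 and 73.4 CPM in TUC A and B, 101 and 68.2 in SLAM, 82.6 and 62.9 in unconverted 4sU, 78.5 and 56.6 in uridine and 77.0 and 54.0 in untreated libraries. Mvd, the decarboxylase that yields isopentenyl diphosphate, had 197 and 152 CPM in TUC A and B, 220.4 and 156 in SLAM, 176 and 142 in unconverted 4sU, 157 and 116 in uridine and 162 and 127 in untreated libraries. Here too the A libraries were higher in every group. Pmvk rose in TUC (0.26 ± 0.058 SE, adjusted p = 0.00547) and in SLAM (0.21 ± 0.058 SE, adjusted p = 0.00943), and Mvd rose in SLAM (0.23 ± 0.055 SE, adjusted p = 0.00335) but did not pass in TUC (0.13 ± 0.055 SE, adjusted p = 0.105).

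Fdps, farnesyl diphosphate synthase, rose in both chemistries. It had 921 and 772 CPM in TUC A and B, 975 and 733 in SLAM, 798 and 629.7 in unconverted 4sU, 682 and 569 in uridine and 671 and 589 in untreated libraries. The fold changes were 0.25 ± 0.059 (SE, adjusted p = 0.00668) in TUC and 0.25 ± 0.059 (SE, adjusted p = 0.00251) in SLAM, and the groups overlapped. Acat2, the thiolase of the first step, had 901 and 742 CPM in TUC A and B, 858 and 676 in SLAM, 794 and 668 in unconverted 4sU, 743 and 624 in uridine and 717 and 651 in untreated libraries, and rose in TUC by 0.17 ± 0.056 (SE, adjusted p = 0.04). In SLAM its fold change was 0.065 ± 0.056 (SE, adjusted p = 0.381). Ggps1 passed in no comparison, with 17.8 and 15.9 CPM in TUC A and B, 15.2 and 15.0 in SLAM, 15.7 and 14.1 in unconverted 4sU, 15.6 and 15.1 in uridine and 16.3 and 14.3 in untreated libraries.

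**Figure D2:**
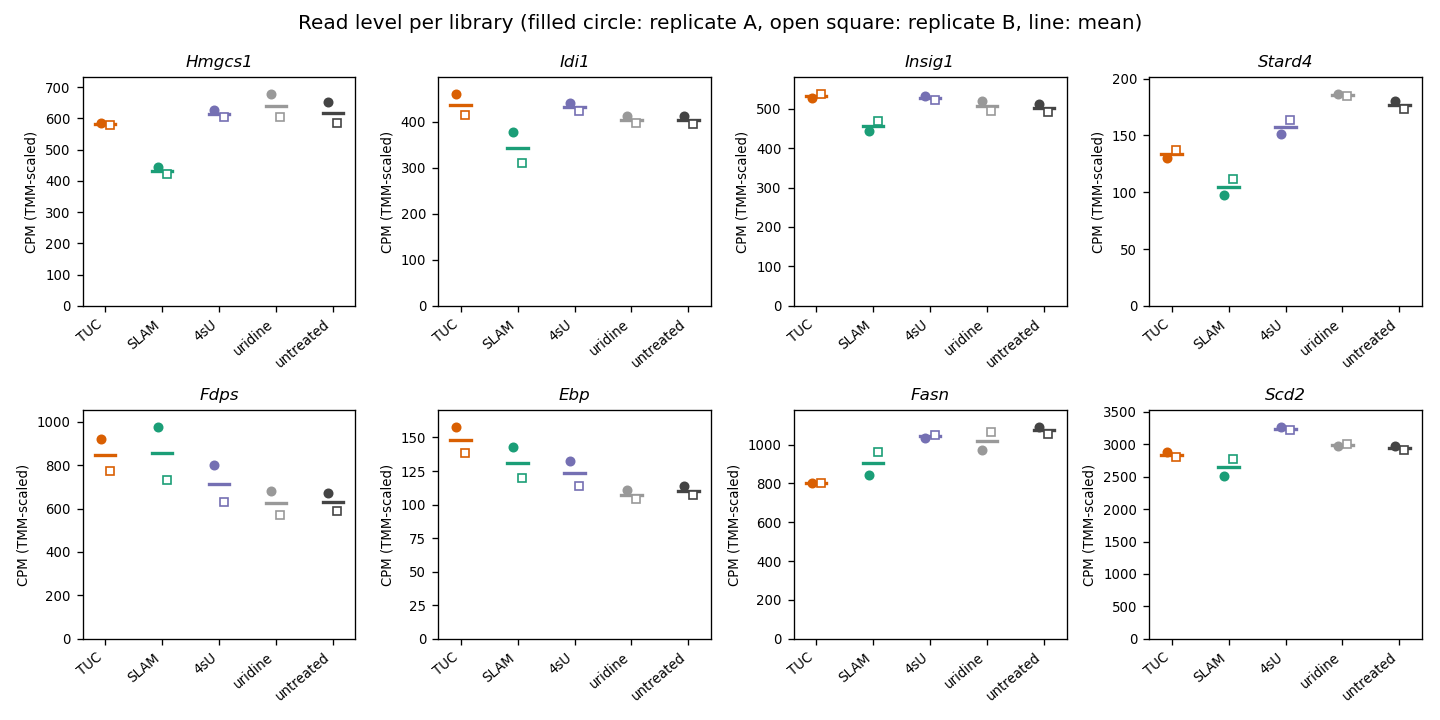
Read level (y axis, CPM with TMM factors, linear from 0) of 8 genes in the 10 libraries, by group (x axis, TUC, SLAM, unconverted 4sU, uridine, untreated). Circles are replicate A, squares replicate B and lines the mean; Hmgcs1 has 445 and 421 CPM in the SLAM libraries, below the other 8, while Fdps has its highest value, 975, in SLAM replicate A.

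Among the 11 squalene and sterol enzymes 2 rose and 1 fell in TUC, and 2 rose and 3 fell in SLAM. Hsd17b7, a sterol ketone reductase, fell in both. It had 109.6 and 138 CPM in TUC A and B, 94.9 and 130.4 in SLAM, 137 and 168 in unconverted 4sU, 155 and 184 in uridine and 149.6 and 182 in untreated libraries. In each letter both converted libraries were below every unconverted one, and B exceeded A in all groups. Its fold changes were -0.30 ± 0.057 (SE, adjusted p = 0.00183) in TUC and -0.44 ± 0.057 (SE, adjusted p = 2.67e-05) in SLAM. Cyp51, the lanosterol demethylase, had 1111 and 1023 CPM in TUC A and B, 989 and 903 in SLAM, 1118 and 1050.0 in unconverted 4sU, 1129 and 1074 in uridine and 1089.8 and 1038 in untreated libraries. Sqle, squalene epoxidase, had 584 and 563 CPM in TUC A and B, 543 and 547 in SLAM, 613 and 586 in unconverted 4sU, 607 and 607 in uridine and 612 and 614 in untreated libraries. For both genes the SLAM libraries were below all 8 others. Both fell in SLAM, with -0.20 ± 0.052 (SE, adjusted p = 0.0059) for Cyp51 and -0.14 ± 0.051 (SE, adjusted p = 0.0418) for Sqle. In TUC against 4sU the value was -0.024 ± 0.052 (SE, adjusted p = 0.774) for Cyp51 and -0.064 ± 0.051 (SE, adjusted p = 0.381) for Sqle.

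Ebp and Tm7sf2, which had the lowest NTR of the sterol enzymes, rose in TUC. Ebp had 158 and 138 CPM in TUC A and B, 143 and 119 in SLAM, 133 and 114 in unconverted 4sU, 111 and 104 in uridine and 114 and 107 in untreated libraries. Tm7sf2 had 88.2 and 86.9 CPM in TUC A and B, 88.0 and 73.4 in SLAM, 77.1 and 73.4 in unconverted 4sU, 63.9 and 65.0 in uridine and 63.9 and 66.9 in untreated libraries. In TUC both libraries of either gene were above all unconverted ones, and Ebp rose by 0.26 ± 0.057 (SE, adjusted p = 0.00401) and Tm7sf2 by 0.22 ± 0.07 (SE, adjusted p = 0.0307). In SLAM against 4sU Ebp was 0.087 ± 0.057 (SE, adjusted p = 0.237) and Tm7sf2 0.10 ± 0.07 (SE, adjusted p = 0.281). Nsdhl, a dehydrogenase in the removal of sterol methyl groups, had 437 and 376 CPM in TUC A and B, 449.5 and 381 in SLAM, 393 and 355 in unconverted 4sU, 379.6 and 340.0 in uridine and 369 and 331 in untreated libraries. Dhcr7, a reductase that yields cholesterol, had 72.7 and 68.1 CPM in TUC A and B, 78.8 and 73.0 in SLAM, 70.0 and 66.9 in unconverted 4sU, 66.0 and 61.1 in uridine and 66.9 and 63.8 in untreated libraries. Both rose in SLAM, Nsdhl by 0.15 ± 0.051 (SE, adjusted p = 0.0287) and Dhcr7 by 0.15 ± 0.055 (SE, adjusted p = 0.0387), and the SLAM libraries of Dhcr7 were above all others.

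Of the group comparisons, Msmo1 and Sc5d, a sterol desaturase, passed only in that of TUC against SLAM. Msmo1 had 715 and 632 CPM in TUC A and B, 644 and 538 in SLAM, 648 and 594 in unconverted 4sU, 678 and 613 in uridine and 646 and 613 in untreated libraries. Sc5d had 258 and 245 CPM in TUC A and B, 229 and 221 in SLAM, 244 and 228 in unconverted 4sU, 248 and 232 in uridine and 240.2 and 232 in untreated libraries. In TUC against SLAM Msmo1 was higher by 0.19 ± 0.055 (SE, adjusted p = 0.0225), Sc5d by 0.16 ± 0.049 (SE, adjusted p = 0.0308), Cyp51 by 0.17 ± 0.052 (SE, adjusted p = 0.0255) and Ebp by 0.18 ± 0.057 (SE, adjusted p = 0.0361). Fdft1, squalene synthase, and Lss, lanosterol synthase, passed in no group comparison. Fdft1 had 452 and 361 CPM in TUC A and B, 458 and 353 in SLAM, 418 and 340.4 in unconverted 4sU, 409.8 and 349 in uridine and 402 and 333 in untreated libraries. Lss had 455 and 424 CPM in TUC A and B, 455 and 431 in SLAM, 504 and 464 in unconverted 4sU, 473 and 450.5 in uridine and 491 and 457 in untreated libraries. Lss lay lower in all 4 converted libraries than in any unconverted 4sU library, yet the fits gave -0.14 ± 0.05 (SE, adjusted p = 0.0502) in TUC and -0.13 ± 0.05 (SE, adjusted p = 0.0504) in SLAM.

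Of the 5 regulators 0 rose and 1 fell in TUC, and 2 rose and 1 fell in SLAM. Srebf1, the SREBP gene tied to fatty acid synthesis, had 44.3 and 48.4 CPM in TUC A and B, 54.9 and 54.8 in SLAM, 47.1 and 50.7 in unconverted 4sU, 48.0 and 52.5 in uridine and 53.4 and 52.3 in untreated libraries. Srebf2 had 369.8 and 406 CPM in TUC A and B, 426 and 468 in SLAM, 410.4 and 444 in unconverted 4sU, 413 and 449 in uridine and 426 and 458 in untreated libraries. Scap had 96.5 and 91.0 CPM in TUC A and B, 109 and 108 in SLAM, 100.3 and 95.5 in unconverted 4sU, 87.2 and 92.9 in uridine and 97.2 and 95.1 in untreated libraries. For all 3 the TUC libraries were below the SLAM libraries, and TUC against SLAM was -0.24 ± 0.064 (SE, adjusted p = 0.0136) for Srebf1, -0.20 ± 0.049 (SE, adjusted p = 0.00817) for Srebf2 and -0.21 ± 0.057 (SE, adjusted p = 0.0158) for Scap. Against unconverted 4sU, Srebf1 and Scap rose in SLAM, by 0.17 ± 0.063 (SE, adjusted p = 0.0455) and 0.15 ± 0.057 (SE, adjusted p = 0.0471), and Srebf2 fell in TUC, with -0.14 ± 0.049 (SE, adjusted p = 0.0486). Insig1 had 527 and 537 CPM in TUC A and B, 443 and 468 in SLAM, 533 and 522 in unconverted 4sU, 519.8 and 493 in uridine and 513 and 491 in untreated libraries. Its SLAM libraries were below the other 8, and it fell in SLAM, with -0.21 ± 0.054 (SE, adjusted p = 0.00537). It was 0.011 ± 0.054 (SE, adjusted p = 0.903) in TUC against 4sU, and was higher in TUC than in SLAM by 0.22 ± 0.054 (SE, adjusted p = 0.00874). Insig2 had 22.2 and 24.6 CPM in TUC A and B, 23.1 and 20.6 in SLAM, 23.9 and 23.9 in unconverted 4sU, 27.9 and 30.9 in uridine and 27.5 and 29.5 in untreated libraries, with every 4sU-treated library below the uridine and untreated ones.

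Of the 5 uptake and transport genes 1 rose and 3 fell in TUC, and 0 rose and 2 fell in SLAM. Stard4 had 130.3 and 137 CPM in TUC A and B, 97.9 and 111 in SLAM, 151 and 164 in unconverted 4sU, 186 and 185 in uridine and 180.1 and 173 in untreated libraries. The 4sU groups did not overlap, with SLAM lowest, TUC next and unconverted 4sU above both. Stard4 fell in both chemistries, with -0.24 ± 0.06 (SE, adjusted p = 0.0099) in TUC and -0.59 ± 0.06 (SE, adjusted p = 4.43e-06) in SLAM, and TUC exceeded SLAM by 0.35 ± 0.06 (SE, adjusted p = 0.000787). Abca1, the cholesterol efflux pump, had 2.45 and 2.32 CPM in TUC A and B, 2.05 and 2.17 in SLAM, 3.84 and 3.37 in unconverted 4sU, 3.12 and 3.73 in uridine and 4.25 and 4.02 in untreated libraries. It is the least abundant of the 34, and it fell in both, with -0.59 ± 0.16 (SE, adjusted p = 0.0146) in TUC and -0.76 ± 0.16 (SE, adjusted p = 0.00139) in SLAM. Lrp8, a receptor of the lipoprotein receptor family, had 91.8 and 105 CPM in TUC A and B, 93.2 and 118 in SLAM, 107 and 119.6 in unconverted 4sU, 124 and 140.0 in uridine and 125 and 132 in untreated libraries and fell in TUC, with -0.20 ± 0.06 (SE, adjusted p = 0.0213). Npc2 had 667 and 591 CPM in TUC A and B, 659 and 537 in SLAM, 546 and 520.5 in unconverted 4sU, 489.6 and 472 in uridine and 482 and 493 in untreated libraries and rose in TUC by 0.24 ± 0.066 (SE, adjusted p = 0.0169). Npc1, its membrane partner, had 36.7 and 45.3 CPM in TUC A and B, 33.9 and 49.8 in SLAM, 40.7 and 51.5 in unconverted 4sU, 48.5 and 61.3 in uridine and 51.0 and 61.6 in untreated libraries, with -0.17 ± 0.071 (SE, adjusted p = 0.0944) in TUC and -0.15 ± 0.07 (SE, adjusted p = 0.11) in SLAM.

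Of the 5 fatty acid enzymes, 3 fell in TUC and the same 3 in SLAM, and 0 rose. Fasn, fatty acid synthase, had 804 and 804 CPM in TUC A and B, 844 and 962 in SLAM, 1032 and 1052 in unconverted 4sU, 972 and 1065 in uridine and 1089.7 and 1055 in untreated libraries. Acaca, acetyl-CoA carboxylase, had 159 and 156 CPM in TUC A and B, 149 and 174 in SLAM, 198 and 204 in unconverted 4sU, 209 and 229 in uridine and 227 and 226 in untreated libraries. Scd2, a fatty acid desaturase, had 2882 and 2799.8 CPM in TUC A and B, 2516 and 2770.1 in SLAM, 3265 and 3219 in unconverted 4sU, 2969 and 3002 in uridine and 2978 and 2915 in untreated libraries. All 4 converted libraries of each were below both unconverted 4sU libraries. In TUC the changes were -0.37 ± 0.061 (SE, adjusted p = 0.000797) for Fasn, -0.35 ± 0.062 (SE, adjusted p = 0.0012) for Acaca and -0.19 ± 0.059 (SE, adjusted p = 0.0282) for Scd2. In SLAM they were -0.21 ± 0.061 (SE, adjusted p = 0.0121) for Fasn, -0.31 ± 0.061 (SE, adjusted p = 0.000764) for Acaca and -0.29 ± 0.059 (SE, adjusted p = 0.000949) for Scd2. Scd1, its paralogue, had 532 and 551 CPM in TUC A and B, 494 and 586 in SLAM, 572 and 616 in unconverted 4sU, 524 and 580.4 in uridine and 538 and 589.8 in untreated libraries, and Acly had 869 and 762 CPM in TUC A and B, 906 and 879 in SLAM, 939 and 853 in unconverted 4sU, 891 and 829 in uridine and 914 and 846 in untreated libraries. Neither passed, and Scd1 was -0.13 ± 0.055 (SE, adjusted p = 0.087) in TUC and -0.14 ± 0.055 (SE, adjusted p = 0.0503) in SLAM.

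**Figure D3:**
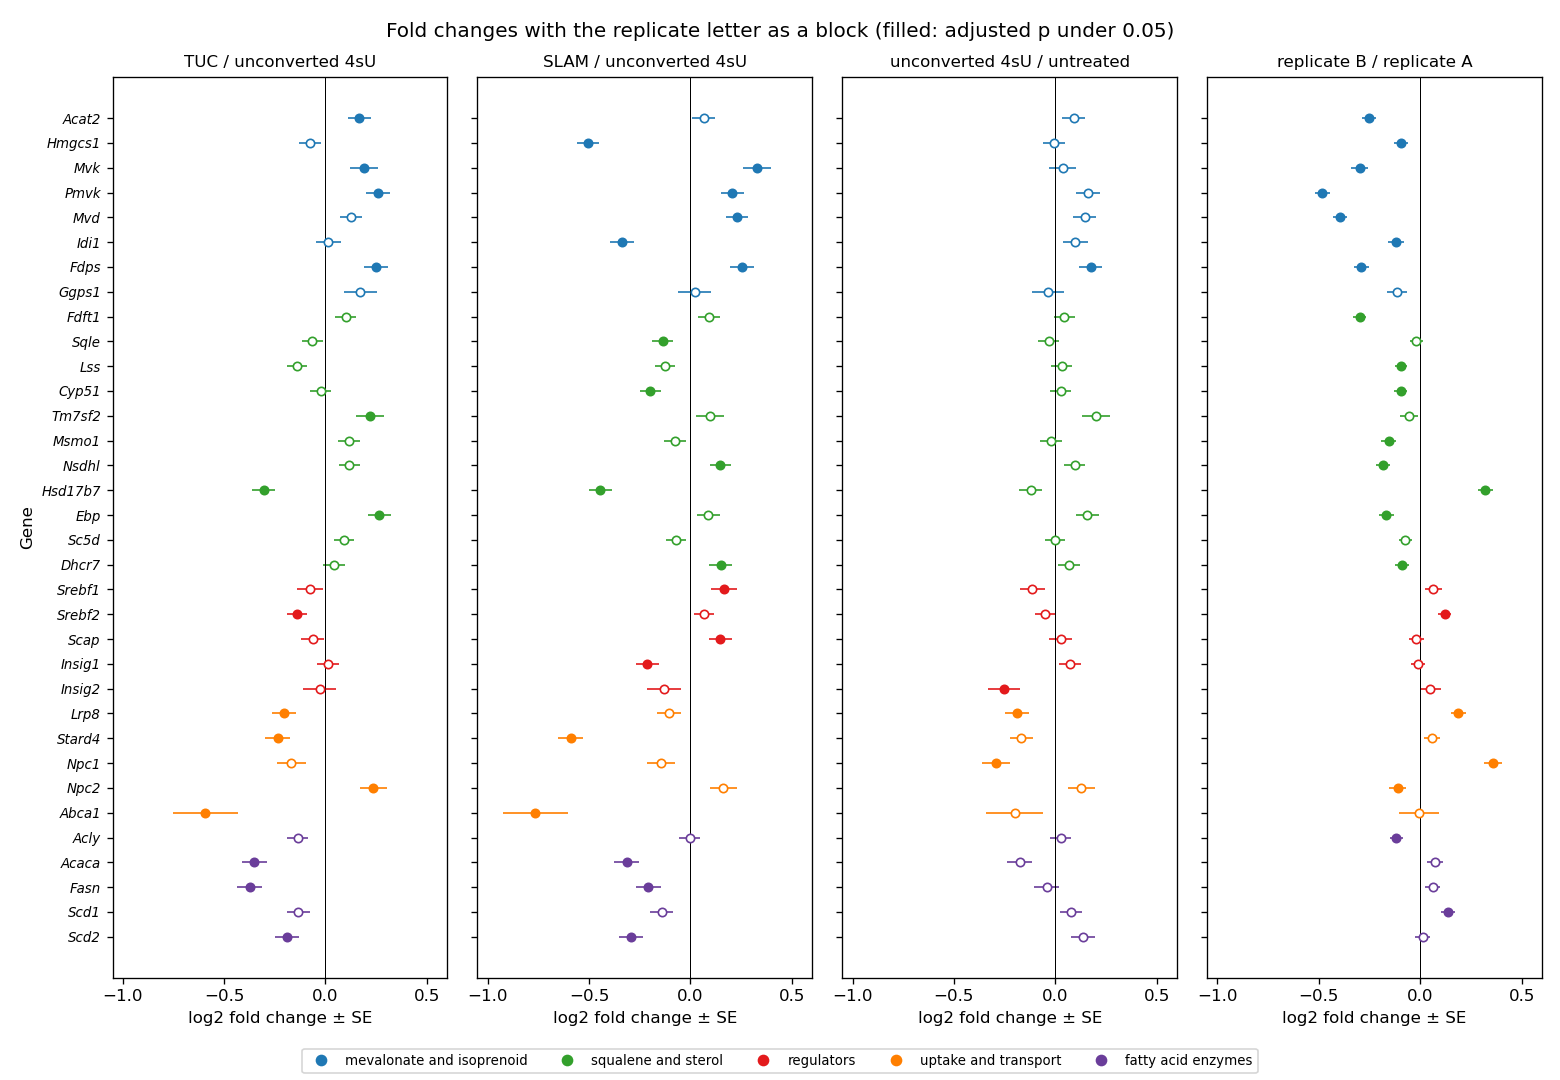
Log2 fold change (x axis, ± SE, n = 2 libraries per group; in the last panel 5 libraries per letter) of the 34 genes (y axis, grouped and coloured by role) in TUC and SLAM against unconverted 4sU, unconverted 4sU against untreated, and replicate B against A. Filled points passed an adjusted p of 0.05 with the letter in the model; Hmgcs1 is at -0.51 in SLAM and at -0.077 in TUC.

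The size and sign of these changes moved with gene length. Spearman's rho between log2 fold change and the deposited length over the 34 genes, in the fit without the block, was -0.87 in TUC against 4sU and -0.61 in SLAM against 4sU, against -0.63 and -0.51 over all 12218 genes. The 7 genes that rose in TUC had a median length of 2250 bases, and the 8 that fell one of 6040. In SLAM the 8 that rose had a median of 2598 and the 11 that fell one of 4612. The ends of this range were Pmvk (1194 bases), Tm7sf2 (1498) and Ebp (1743) on one side and Acaca (9513), Fasn (10050) and Abca1 (10262) on the other. In TUC against SLAM the rho was -0.14, against 0.036 over all genes. Hmgcs1 (3464 bases) and Idi1 (3027) fell in SLAM at lengths near those of Fdps (2953), which rose. These points share their libraries, and the part of length in the results was not tested.

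The changes also moved with the new share, read here from the chemistry not used in the fold change. In the fit without the block, Spearman's rho over 33 genes was -0.37 between TUC against 4sU and the SLAM NTR and -0.49 between SLAM against 4sU and the TUC NTR, against -0.45 and -0.41 over all 10202 genes. In TUC against 4sU the median log2 fold change in that fit was 0.21 over the 8 genes with a SLAM NTR under 0.3, -0.031 over the 13 from 0.3 to 0.6 and -0.076 over the 13 above 0.6. In SLAM against 4sU it was 0.10 over the 7 genes with a TUC NTR under 0.3, -0.031 over the 14 from 0.3 to 0.6 and -0.14 over the 13 above 0.6. With classes from the SLAM libraries themselves the middle class was -0.13 in SLAM, close to the highest. Of the 13 genes above 0.6, Ggps1, Srebf1 and Fdft1 were the 3 with a positive value in SLAM. NTR and length were themselves related over these genes, with a rho of 0.34, and their part in the changes was not tested. In unconverted 4sU against untreated the rho with the SLAM NTR was -0.55 over 33 genes, against -0.27 over all.

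**Figure D4:**
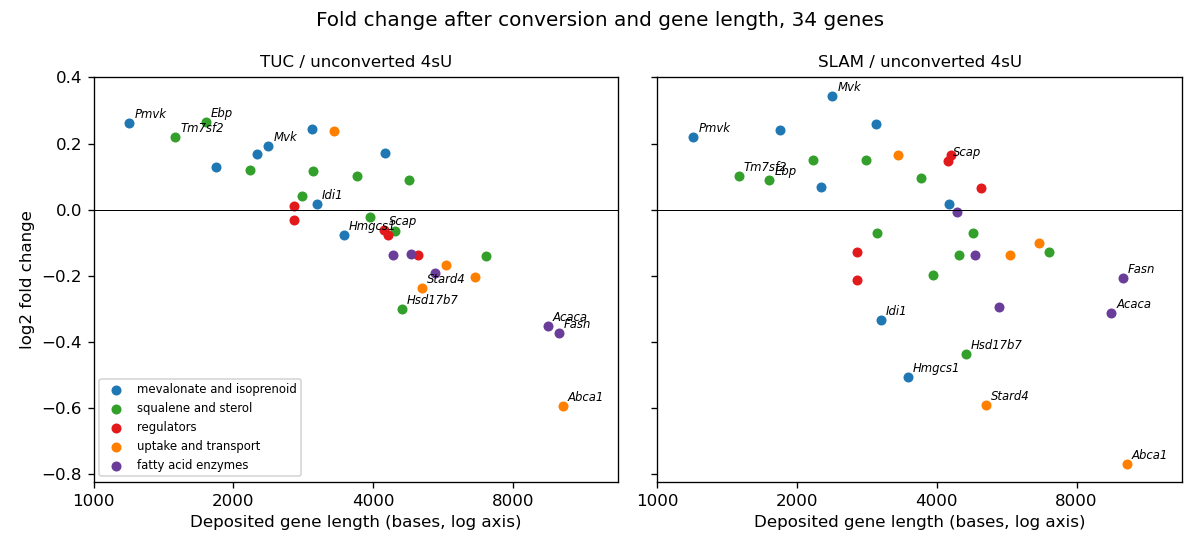
Log2 fold change (y axis, fit without the block) against deposited gene length (x axis, bases, log axis) for the 34 genes in TUC and SLAM against unconverted 4sU, coloured by role. Points fall from Pmvk (1194 bases) to Abca1 (10262 bases), with rho -0.87 in TUC and -0.61 in SLAM, where Hmgcs1, Idi1 and Stard4 lie below other genes of like length.

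Labelling without conversion was set against both groups of cells without 4sU. In unconverted 4sU against untreated 4 of 34 passed with the block, where 19.9% of all genes did, 6.97% higher and 12.9% lower. Fdps rose by 0.17 ± 0.059 (SE, adjusted p = 0.0475), and Insig2, Lrp8 and Npc1 fell, with -0.25 ± 0.079 (SE, adjusted p = 0.0342), -0.19 ± 0.059 (SE, adjusted p = 0.0335) and -0.29 ± 0.069 (SE, adjusted p = 0.00718). The unconverted 4sU libraries of Insig2 and Lrp8 were below both untreated ones, while those of Fdps and Npc1 overlapped them. The count was 0 without 4sU replicate A, without 4sU replicate B or without untreated replicate A, and 6 without untreated replicate B, beside 943, 890, 1056 and 1996 of all genes. With RLE factors it was 4 higher and 2 lower, beside 1029 and 1459 over all genes. With library totals it was 0 higher and 3 lower, beside 582 and 1589 over all genes.

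In unconverted 4sU against uridine, which shares the 4sU libraries, 8 passed, where 19.7% of all genes did, 6.47% higher and 13.3% lower. Mvd (0.23 ± 0.055 SE, adjusted p = 0.00913), Fdps (0.19 ± 0.059 SE, adjusted p = 0.0355), Tm7sf2 (0.22 ± 0.071 SE, adjusted p = 0.0372) and Ebp (0.20 ± 0.057 SE, adjusted p = 0.0249) rose. Insig2 (-0.30 ± 0.08 SE, adjusted p = 0.015), Lrp8 (-0.22 ± 0.06 SE, adjusted p = 0.0157), Stard4 (-0.24 ± 0.059 SE, adjusted p = 0.00992) and Npc1 (-0.25 ± 0.069 SE, adjusted p = 0.0184) fell. The count was 0 without 4sU replicate B and 1 without any of the other 3 libraries, beside 955 and 929 to 1042 of all genes. Uridine itself, the control nucleoside, called 0 of 34 genes against untreated with or without the block, and 0 by DESeq2. With the block 1 of all genes was called, 0.00818%. At an unadjusted p under 0.05 there were 0 of the 34 in both fits, beside 46 of all genes without the block and 380 with it. The log2 fold changes of the 34 genes against uridine and untreated cells tracked length as well, with rho -0.46 and -0.67, against -0.35 and -0.41 over all genes.

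The replicate letter separated many of these genes, in a test that sets 5 libraries against 5. Across all 5 groups 21 of 34 genes differed between replicates B and A, 5 higher and 16 lower in B, where 60.3% of all genes did, 31% higher and 29.3% lower. Of the 8 mevalonate and isoprenoid enzymes 7 were lower in B and 0 higher, led by Pmvk (-0.48 ± 0.037 SE, adjusted p = 3.18e-08) and Mvd (-0.39 ± 0.035 SE, adjusted p = 1.4e-07), and of the 11 sterol enzymes 7 were lower and 1 higher. Npc1 (0.36 ± 0.044 SE, adjusted p = 3.87e-06), Hsd17b7 (0.32 ± 0.036 SE, adjusted p = 1.52e-06) and Lrp8 (0.19 ± 0.038 SE, adjusted p = 0.000453) were higher in B, as were Srebf2 (0.12 ± 0.031 SE, adjusted p = 0.00329) and Scd1 (0.14 ± 0.035 SE, adjusted p = 0.0031). The rho with length was 0.70 over the 34 genes and 0.46 over all. With library totals the split was 8 higher and 11 lower, beside 4329 higher and 2923 lower over all genes. Of the 34 genes, 16 passed without each of the 10 libraries in turn, and the like count over all genes was not made. What the libraries of a letter have in common is not stated in the labels.

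A further 83 genes of the pathway and its surroundings were listed, of which 78 were in the table and 75 were tested. With the block, 7 were higher and 13 lower in TUC against 4sU, 17 higher and 17 lower in SLAM against 4sU, 10 higher and 8 lower in TUC against SLAM, 5 higher and 13 lower in 4sU against untreated, 4 higher and 14 lower in 4sU against uridine, and 0 in uridine against untreated. Between the letters 24 were higher and 30 lower in B. The share of the 75 that passed was 26.7% in TUC against 4sU, where 25.8% of all genes passed, and 45.3% in SLAM against 4sU, where 41.6% did. It was 24% in each of TUC against SLAM, 4sU against untreated and 4sU against uridine, where 20.1%, 19.9% and 19.7% of all genes passed, and 72% between the letters, where 60.3% did. Pggt1b, a subunit of the enzyme that attaches geranylgeranyl groups to proteins, passed even without the block in SLAM against 4sU (-0.92 ± 0.12 SE, adjusted p = 0.0444), and with it was -0.39 ± 0.089 (SE, adjusted p = 0.00588) in TUC and 0.53 ± 0.10 (SE, adjusted p = 0.00144) in TUC against SLAM. Slc25a1, the mitochondrial citrate carrier, rose in SLAM (0.55 ± 0.055 SE, adjusted p = 3.65e-06). Gpam, an enzyme of glycerolipid synthesis, fell in TUC (-0.65 ± 0.12 SE, adjusted p = 0.00138) and in SLAM (-0.44 ± 0.11 SE, adjusted p = 0.00583). Mylip, the ligase that targets lipoprotein receptors, was higher in B than in A by 0.98 ± 0.045 (SE, adjusted p = 1.51e-10).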

How the data were processed

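The 34 genes and the lists of other pathway genes and markers were chosen with earlier results of these data known. Expected counts of reads per gene were deposited unscaled for 10 libraries, per the file headers and values (24.8 to 30.3% of genes per library were not whole), and were rounded. For 8 libraries a fraction per gene with its bounds was deposited, per the file headers. The headers leave the quantity unnamed, and it is taken here as the NTR. The deposited gene length is likewise not defined. Cutadapt, Bowtie2 2.3.0 and STAR 2.7.10b are listed per the submitters' processing notes. For the NTR tool, counting tool, strand setting, annotation and build, nothing is given in the sources used here. A further 16 columns of values, counted over all libraries, were not used.

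edgeR 4.0.16 in R 4.3.3 (TMM factors, filterByExpr, quasi-likelihood test, Benjamini-Hochberg adjustment) was fitted to the 12218 genes past the filter in 1 model of all 10 libraries. CPM use the TMM factors. limma 3.58.1 tested the logit of NTR (kept at least 0.001 from 0 and 1) over the 10202 genes that averaged at least 100 reads in the converted libraries. Alternatives were DESeq2 1.42.0, RLE factors, library totals, other filters, the 4 libraries compared alone, and each library left out. Half-lives assume constant synthesis and decay, and are the labelling time of 2 h multiplied by ln 2 and divided by -ln(1 - NTR).

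Each group holds an A and a B library. The letters were taken to pair libraries since the difference between A and B correlated across genes for any pair of groups, at 0.584 to 0.69 over 10 pairs. This pairing comes from the data and not from the labels, so the fit without the block stays the main one. Replicates were no duplicates of each other, with chi-square values of 37.5 to 76.6 per degree of freedom. The lowest value between any 2 libraries was 3.32, for libraries of different groups. No label says that replicates were separate cultures, and p-values therefore cover only the spread between these libraries. All 34 genes could be named. For other pathway genes the rule allowed up to 4 of the largest called changes per comparison, and not all of these are reported here. Promoters are RefSeq's, and Abca1 has the lowest counts.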

Additional observations from a re-analysis of the deposited data

Results flagged for a closer look

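The direct test of TUC against SLAM, with the letter as a block, passed for 11 of the 34 genes. The log2 fold changes (edgeR, TUC over SLAM) were 0.43 for Hmgcs1, 0.35 for Idi1, 0.35 for Stard4, 0.22 for Insig1, 0.19 for Msmo1, 0.18 for Ebp, 0.17 for Cyp51 and 0.16 for Sc5d. They were -0.24 for Srebf1, -0.21 for Scap and -0.20 for Srebf2. Each was picked out because the difference between the chemistries itself passed an adjusted p of 0.05. The TUC and SLAM libraries did not overlap for 16 of the 34 genes, where this held for 30.96% of all genes, and those of Msmo1 and Ebp did overlap. Hmgcs1, Idi1 and Stard4 passed without any 1 of the 4 libraries, and the like count over all genes was not made. The fit without the block called 0 of the 34 genes (6 at an unadjusted p under 0.05). DESeq2 called 1 of the 34 and 183 of 12218 genes.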

How the results depend on the processing

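Without the replicate block edgeR called 0 of the 34 genes in every group comparison, and this count was the same with RLE factors, library totals, other filters, the 4 libraries alone and each library left out; DESeq2 called 4 in SLAM against 4sU (693 of 12218 genes) and 1 in TUC against SLAM (183 genes). With the replicate block the counts were 15 in TUC against 4sU, 19 in SLAM against 4sU, 11 in TUC against SLAM, 8 in 4sU against uridine and 4 in 4sU against untreated. Over all genes they were 3151, 5080, 2458, 2411 and 2432 in that order. Other settings with the block follow in the same order of comparisons. All but the fits with a library left out were chosen after seeing the data. With library totals the counts were 15, 17, 11, 7 and 3, beside 2742, 4903, 2241, 2200 and 2171 of all genes. With a mean of 100 counts or more they were 15, 20, 11, 8 and 7, beside 3203, 4985, 2428, 2529 and 2520 of 10232 genes. With no filter they were 14, 17, 11, 8 and 7, beside 3249, 5117, 2598, 2617 and 2650 of 16843 genes. With RLE factors they were 16, 21, 11, 8 and 6, beside 3116, 5067, 2423, 2487 and 2488 of all genes. Over only the 4 libraries compared they were 24, 15, 7, 18 and 13, beside 5071, 4749, 2027, 4498 and 3901 of all genes. Leaving out 1 library at a time gave 2 to 5, 9 to 26, 3 to 14, 0 to 1 and 0 to 6. The paired fit in uridine against untreated called 0 under every setting. Between the letters the count was 21, and 16 to 22 with 1 library left out, beside 7368 and 6564 to 7196 of all genes.

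Against the fit without the block, 3 values changed sign among genes that passed with or without the block in the comparison concerned: Fdps in 4sU against untreated was -0.0033 without 4sU replicate A and 0.34 without 4sU replicate B, and in SLAM against 4sU Pmvk was -0.090 and Mvd -0.024 without SLAM replicate A, and 0.48 and 0.47 without SLAM replicate B. The cause was not tested, and leaving out 1 letter of 1 group also unbalances the letters. Of the 1409 values of these genes under alternatives, 959 kept their direction and their side of the threshold, and 3 changed sign. Another 417 kept their direction and passed it only under the alternative, and 30 kept their direction and no longer passed. The 1409 include the test of B against A, whose reference fit holds the letter. All 30 were of that test, since edgeR without the block called 0 of these genes in every group comparison. Among genes that did not pass in a comparison, 278 of 3100 values changed sign, 236 of them with a library left out, and this touched 102 of 160 pairs of gene and comparison. The NTR test called 0 of the 34 genes at 20 reads or more, beside 23 of all 11427. At 500 reads or more it called 0 of 32, beside 65 of all 7643. On the ratio itself, and with the block, it called 0 of all 10202 genes.

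Groups of 2 libraries limit what can be seen. The lowest member, Abca1, rests on at least 60 reads per library, so its fold changes and NTR are the least precise.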
